A study of Homo sapiens with 24 samples.

Results

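The long arm of chromosome 8, taken from 47 Mb to the end of the chromosome in GRCh37, held 506 of the 13347 matched peaks in 8 ChIP-seq peak lists of HCC827 lung cancer cells. Members were the peaks of each list whose midpoint lay at 47 Mb or beyond, and they joined into 396 positions when peaks of any list that overlapped by 1 bp were merged. The arm was chosen by earlier peak calls in these same lists, because it carries peaks at MYC, at RDH10 and at a few further positions. The presence of peaks on the arm is therefore a description and was not tested. Peaks are named by coordinates, since gene annotation of GRCh37 was not used here. Gene names are given only for MYC and RDH10.

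HCC827 is a human lung adenocarcinoma line with a mutated and amplified EGFR gene. The series holds 24 samples in 12 groups of 2, of which 16 entered the lists, and the 8 input samples were not analysed here. In resistant cells, named HCC827-OR and grown with osimertinib (1 µM), an inhibitor of mutant EGFR, the 4 lists came from METTL7A-MYC-tag-FLAG cells with the MYC-tag antibody, wild-type cells with the MYC-tag antibody, and the same cells of either genotype with IgG. The untreated parental HCC827 cells gave the same 4 lists, so resistance and exposure to the drug cannot be told apart. The promoter behind the transgene and the number of clones are not named in the labels, and no METTL7A protein level was used here. Each list merges both replicates of a group, so it has no replicate error, and the files do not give sequencing depth.

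MYC encodes a transcription factor that drives cell growth, and gain of its chromosome arm is common in lung cancer. The tag on METTL7A copies a short stretch of the MYC protein, so an antibody to the tag can also bind MYC itself, with or without the transgene. METTL7A resembles methyltransferases and sits at intracellular membranes. RDH10 encodes the enzyme that oxidises retinol to retinal on the way to retinoic acid. IgG lists show where chromatin is recovered without a specific antibody.

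Lists ranged from 70 peaks (parental METTL7A IgG) to 3165 peaks (resistant METTL7A MYC-tag). Peak height below is the peak caller's −log10 p, the lower of the 2 replicates, as the authors deposited it. It has no common scale across lists and serves only to describe or rank peaks within a list. A peak is called reproducible at a global irreproducible discovery rate (IDR) of 0.05 or less. The EGFR region at 54 to 56 Mb of chromosome 7, which marks this cell line, held 4.16% to 21.9% of each list. Spearman's rho between the replicates' heights over the long-arm peaks was −0.0221 to 0.197 in the 6 lists with 43 or more such peaks. In the same 6 whole lists it was 0.122 to 0.228, and peaks of one list are not independent.

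The share of a list on the long arm was 2.88% (95% exact binomial interval 2.32 to 3.52, 91 of 3165 peaks) in the resistant METTL7A MYC-tag list. It was 5.64% (4.72 to 6.67, 128 of 2271) in the parental METTL7A MYC-tag list, the highest of the lists with more than 100 peaks. Wild-type MYC-tag lists held 3.83% (3.15 to 4.61, 106 of 2767) in resistant and 4.28% (3.11 to 5.72, 43 of 1005) in parental cells. The METTL7A IgG lists held 5 of 96 peaks (5.21%, 1.71 to 11.7) in resistant and 1 of 70 (1.43%, 0.0362 to 7.70) in parental cells. Wild-type IgG lists held 3.28% (2.62 to 4.05, 83 of 2529) in resistant and 3.39% (2.52 to 4.46, 49 of 1444) in parental cells. These intervals reflect counting error alone, and nearby peaks may depend on each other.

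Over all lists the long arm held 511 peaks per 100 Mb of DNA, against 126 on the short arm, which was taken below 43 Mb and held 54 peaks, and 408 on the nuclear chromosomes other than 7 and 8. The long-arm density was 4.07 times the short-arm density and 1.25 times that of the other chromosomes. By list, the ratio of long to short arm was 5.64 in resistant and 13.9 in parental METTL7A MYC-tag lists, from 7 and 4 short-arm peaks. With the same antibody in wild-type cells it was 2.88 in resistant and 3.73 in parental cells, from 16 and 5 short-arm peaks. It was 3.60 in resistant and 1.93 in parental wild-type IgG, from 10 and 11 short-arm peaks. In resistant METTL7A IgG it was 2.17, from 1 short-arm peak. The ratios rest on these small counts, and their differences between lists were not tested. The parental METTL7A IgG list had 0 short-arm peaks of 70, where 3 counts would be 4.29% and the exact 95% interval reached 5.13%. The long arm was thus the denser arm in each of the 7 lists where the ratio could be formed, IgG lists included.

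**Figure D1:**
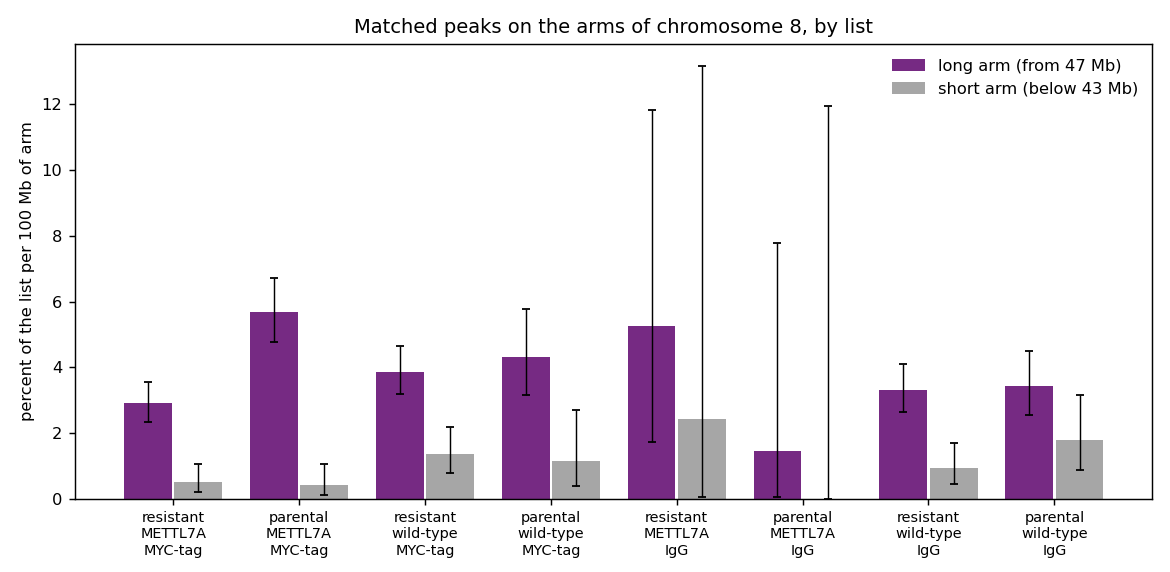
Share of each list's matched peaks on the long arm (purple) and short arm (grey) of chromosome 8, in percent of the list per 100 Mb of arm, with exact 95% binomial intervals. In all 8 lists the purple bar is above the grey one, and the intervals of the METTL7A IgG lists, with 96 and 70 peaks, are the widest.

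Against the other chromosomes, the long-arm density was 0.922 times as high in resistant and 1.95 times as high in parental cells for METTL7A with the MYC-tag antibody. The ratios were 1.25 and 1.55 in the resistant and parental wild-type MYC-tag lists, and 1.06 and 1.10 in the wild-type IgG lists. The METTL7A IgG lists gave 2.29 and 0.444, from 5 peaks and 1 peak. The copy number of the arm was not measured here, since the input libraries were not analysed.

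None of the 3 factors of the design separated the lists by their long-arm share. The 4 METTL7A lists averaged 3.79% ± 1.99 and the 4 wild-type lists 3.70% ± 0.455 (SD over lists), a difference of 0.0909 percentage points. The 4 MYC-tag lists averaged 4.16% ± 1.15 and the 4 IgG lists 3.33% ± 1.54, a difference of 0.827. The 4 resistant lists averaged 3.80% ± 1.02 and the 4 parental lists 3.68% ± 1.76, a difference of 0.115. Two-sided exact permutation tests over lists gave p = 1, 0.4 and 0.914, each 1 after Benjamini-Hochberg adjustment over the 3 tests, where 4 against 4 lists allow no p below 0.0286. Leaving out 1 list turned the METTL7A difference to −0.53 without parental METTL7A MYC-tag, −0.38 without resistant METTL7A IgG, −0.05 without resistant wild-type IgG and −0.01 without parental wild-type IgG. It turned the resistant one to −0.64 without parental METTL7A IgG and −0.35 without resistant METTL7A IgG.

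Peaks were unevenly spread along the arm. Of its 100 bins of 1 Mb, 37 held no peak, and the 10 fullest bins held 254 peaks (50.2%). The bin from 75 Mb held the most (42 peaks at 23 positions, in 7 of 8 lists), followed by those from 133 Mb (31) and 82 Mb (29). The bin from 128 Mb, which holds MYC, had 25 peaks, from all 8 lists. The parental METTL7A IgG list had its only long-arm peak there, so no other bin could have all 8. The longest stretch without a peak in any list ran for 7.29 Mb (8:105479347–112770982). A single position separated it from the next empty stretch, which ran for 5.76 Mb (8:112771314–118532757).

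The make-up of these bins by antibody and genotype varied. In all, METTL7A MYC-tag lists supplied 219 of the 506 peaks, wild-type MYC-tag lists 149 and IgG lists 138 (27.3%, against 31.0% of all peaks in the series). The bin from 82 Mb drew 17 of its 29 peaks from the METTL7A MYC-tag lists, 6 from wild-type MYC-tag and 6 from IgG. At 133 Mb the counts were 18, 9 and 4. The last of the fullest bins towards the chromosome end, from 145 Mb, ran the other way, with 4 METTL7A MYC-tag, 4 wild-type MYC-tag and 12 IgG peaks. Of these 12, the parental wild-type IgG list gave 9. From 140 Mb outwards lay 19.8% and 6.25% of the long-arm peaks of the resistant and parental METTL7A MYC-tag lists, 12.3% and 11.6% with the same antibody in wild-type cells, and 18.1% and 36.7% with IgG in wild-type cells. These bins were ranked by their peaks, and the make-up was not tested.

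**Figure D2:**
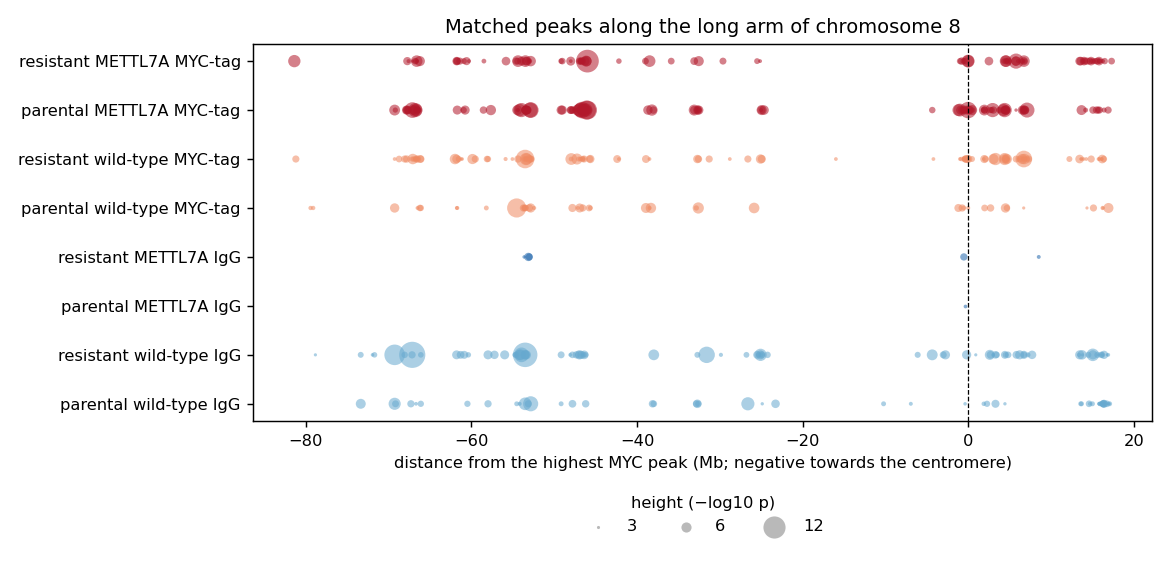
Matched peaks of the 8 lists along the long arm, as distance in Mb from the highest peak at MYC, with dot area rising with peak height (−log10 p). The stretch of 7.29 Mb without a peak shows as a gap through all 8 rows on the centromere side of MYC, and the METTL7A IgG rows hold 5 dots and 1 dot.

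All 4 MYC-tag lists had a peak at MYC and no IgG list did, between 8:128747248 and 8:128751746. This contrast was among the reasons for choosing the arm. The METTL7A IgG lists held only 5 (resistant) and 1 (parental) long-arm peaks, so their lack of a peak at MYC says little. The interval is that of the peaks, and it falls into 2 positions 382 bp apart. The first (8:128747248–128748842) was shared by both METTL7A MYC-tag lists and no other, at heights of 7.29 in resistant and 9.07 in parental cells. Its replicate heights were 7.97 and 7.29 in resistant METTL7A cells, and 9.36 and 9.07 in parental METTL7A cells. The second (8:128749225–128751746) had a peak in all 4 MYC-tag lists. Its heights were 6.87 (resistant METTL7A), 5.59 (parental METTL7A), 5.10 (resistant wild-type) and 3.39 (parental wild-type), so the METTL7A lists had the larger numbers, on scales that differ between lists. Over all chromosomes 0.655% of positions were in all 4 MYC-tag lists, and 2 of the 396 on the long arm were (0.505%). These shares count positions with or without an IgG peak. The other long-arm position, 8:75896338–75897467, also had a peak in parental wild-type IgG. No MYC peak was reproducible, and the lowest IDR was 0.0702.

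Apart from the MYC interval itself, the MYC-tag peaks nearest to the highest MYC peak lay at 226 kb (resistant METTL7A), 182 kb (parental METTL7A), 145 kb (resistant wild-type) and 539 kb (parental wild-type). The nearest IgG peaks lay at 517 kb, 334 kb, 182 kb and 368 kb in the same 4 kinds of cells. Within 1 Mb on either side lay 36 peaks, with 6 (resistant) and 13 (parental) from METTL7A MYC-tag and 9 and 3 from wild-type MYC-tag. The IgG lists had 1 and 1 (METTL7A) and 2 and 1 (wild-type). Of the 36, 6 were the peaks at MYC, on which the choice of the arm drew. Without them, MYC-tag lists had 25 of 362 long-arm peaks there (6.91%, 4.52 to 10.03) and IgG lists 5 of 138 (3.62%, 1.19 to 8.25), and the intervals overlap. These 30 peaks lay mostly on the side towards the centromere (25), where the RefSeq gene table of GRCh38.p14 places POU5F1B and CASC11 as neighbours of MYC. The other 5 lay on the far side, where it places PVT1.

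**Figure D3:**
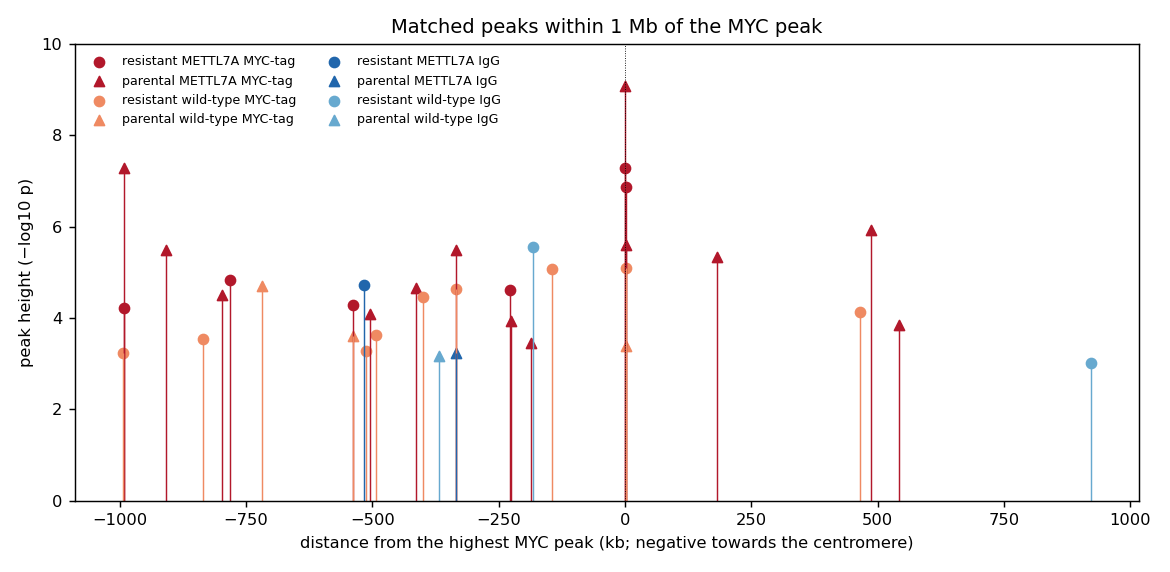
Peak height (−log10 p) of each matched peak within 1 Mb of the highest MYC peak, by distance in kb, coloured by antibody and genotype with circles for resistant and triangles for parental cells. The 6 peaks at MYC belong to MYC-tag lists, and the IgG peaks lie 182 kb or more away.

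One position near MYC carried the only long-arm peak of the parental METTL7A IgG list (8:128412994–128415637). MYC-tag lists had a peak there of 5.48 in parental METTL7A and 4.63 in resistant wild-type cells. The IgG peak had replicate heights of 3.23 and 5.64 and an IDR of 0.000598, the lowest on the arm, in a list where 75.7% of peaks were reproducible. Over the 70 peaks of that list Spearman's rho between the replicates' heights was −0.0305. This IDR may therefore not compare with those of longer lists.

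Reproducible peaks on the arm numbered 13, at 11 positions, with 8 in MYC-tag and 5 in IgG lists. The parental METTL7A MYC-tag list had 5 of 128 (3.91%, against 6.38% of the whole list) and the resistant one 1 of 91 (1.10%, against 3.29%). The resistant and parental wild-type MYC-tag lists had 1 of 106 (0.943%, against 2.28%) and 1 of 43 (2.33%, against 2.59%). The resistant and parental wild-type IgG lists had 1 of 83 (1.205%, against 0.791%) and 3 of 49 (6.12%, against 2.15%). The parental METTL7A IgG list had 1 of 1, and the resistant one 0 of 5, where 13.5% of the whole list passed. On the short arm none of the 54 peaks was reproducible. In the lists with short-arm peaks 0.791% to 13.5% of the whole list passed, so 54 peaks are too few to set the short arm apart.

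Of the reproducible long-arm peaks 4, all from METTL7A MYC-tag lists, lay between 82 and 83 Mb. The position at 8:82644427–82645093 had heights of 6.0 in resistant and 10.3 in parental METTL7A MYC-tag cells, with replicate heights of 6.0 and 9.58 (resistant) and 10.3 and 11.6 (parental). It had no peak in the other 6 lists, but the METTL7A IgG lists among them held only 5 (resistant) and 1 (parental) long-arm peaks. The position at 8:82088418–82089292 was likewise in both METTL7A MYC-tag lists and no other, at 4.23 in resistant and 9.06 in parental cells. The highest long-arm peak of the resistant METTL7A MYC-tag list was at 8:82753863–82754405 (12.3 and 14.7 in the replicates, IDR 0.00410). The parental METTL7A MYC-tag list had its own peak 21268 bp further on, at 8:82775674–82776655 (10.2 and 10.3), and these 2 peaks were in 1 list each.

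Of the positions with a reproducible peak, 3 between 74 and 76 Mb had peaks in wild-type lists alone. At RDH10 (8:74206075–74207968) only parental wild-type cells had peaks, with replicate heights of 10.4 and 15.01 with the MYC-tag antibody and 3.68 and 12.8 with IgG. The position at 8:75232452–75234136 had peaks in all 4 wild-type lists and in no METTL7A list. Its heights were 3.15 in resistant and 4.46 in parental MYC-tag lists, and 13.3 in resistant and 7.19 in parental IgG lists, so the IgG lists had the larger numbers, again on differing scales. About 5 kb nearer the centromere, 8:75227258–75228016 was found in resistant wild-type cells with the MYC-tag antibody (10.1) and with IgG (5.74). IgG gave a peak in the same cells at each of the 3 positions. The METTL7A IgG lists that had none held only 96 and 70 peaks.

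The position at 8:75896338–75897467 was in 5 lists, among them all 4 MYC-tag lists. Heights were 6.15 and 8.74 in resistant and parental METTL7A MYC-tag, 4.34 and 5.58 in resistant and parental wild-type MYC-tag, and 8.39 in parental wild-type IgG, where as in parental METTL7A MYC-tag it was reproducible. The other position in 5 lists (8:59465321–59466186) reached 6.34 in parental METTL7A MYC-tag and, in resistant and parental wild-type cells, 3.23 and 5.64 with MYC-tag and 11.2 and 6.94 with IgG. The remaining reproducible peaks lay at 8:61605267–61606371 (8.65, parental METTL7A MYC-tag only) and 8:102137906–102139623 (4.65 in resistant wild-type MYC-tag and 7.44, reproducible, in parental wild-type IgG). Within the resistant wild-type IgG list the greatest long-arm height was 14.2, and this peak at 8:61590772–61593190 was in no other list and missed the threshold at an IDR of 0.0598. The highest of the 5 peaks of resistant METTL7A IgG, at 8:75618270–75618840, had a height of 5.18 and was in that list alone.

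**Figure D4:**
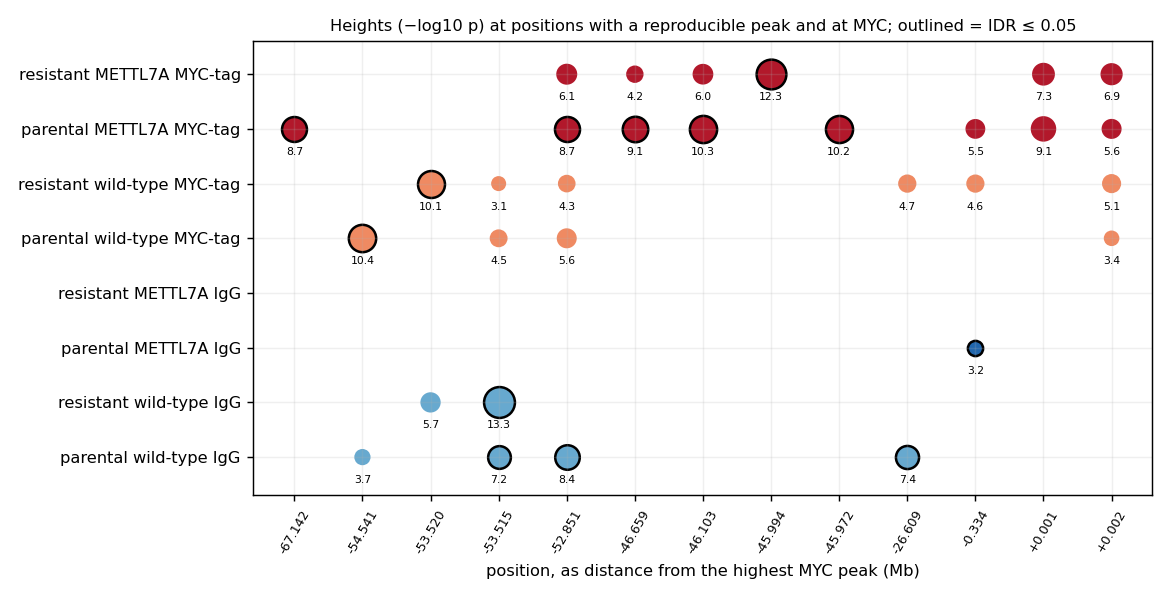
Peak heights (−log10 p) at the 11 positions with a reproducible peak and at the 2 MYC positions, by list, placed by distance in Mb from the highest MYC peak, with reproducible peaks outlined. The columns between 82 and 83 Mb of the chromosome hold METTL7A MYC-tag peaks, that of RDH10 holds parental wild-type peaks of both antibodies, and no IgG list has a peak in the MYC columns.

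Positions recurred between lists on the arm in 76 of 396 cases (19.2%, 15.4 to 23.4), against 13% of positions over all chromosomes and 1 of 53 on the short arm. In 3 or more lists were 24 (6.06%, against 3.2%). Of the 76, 39 were in MYC-tag lists only (9.85% of long-arm positions, against 5% over all chromosomes), 35 in lists of both antibodies (8.84%, against 7.18%) and 2 in IgG lists only (0.505%, against 0.853%). Both states were represented at 60 of them (15.2% of long-arm positions, against 8.86%). In 16 cases the position was in both METTL7A MYC-tag lists and no other (4.04%, 2.33 to 6.48, against 2.05%), and in 26 it was in wild-type lists only (6.57%, against 5.07%). The lists differ in length, and no chance level was computed here.

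Among the 24 positions in 3 or more lists, 6 were in MYC-tag lists only (1.52%, against 0.781%). They were the second MYC position, 8:61653914–61654863, 8:67024890–67026246, 8:75327752–75329088, 8:81901884–81903092 and 8:127755546–127756731. The last of these had heights of 4.21 and 7.28 in resistant and parental METTL7A MYC-tag and 3.24 in resistant wild-type MYC-tag. Another 6 were in wild-type lists only (1.52%, against 0.7%): 8:75232452–75234136, 8:62626547–62627446, 8:70744145–70745662, 8:82192194–82194220, 8:96036931–96037605 and 8:132051702–132054574. A position in 3 or more lists, all of them wild-type, must have a peak in at least 1 IgG list, so their IgG peaks follow from the grouping. The remaining 12 were in lists of both antibodies and both genotypes, including 8:75262215–75263201, 8:75390422–75391258 and 8:79577929–79578913 in 4 lists each.

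The 16 positions shared only by the METTL7A MYC-tag lists had a lower height, of the pair of lists, between 3.04 and 7.29. Both heights reached 5 at 5 of them, led by the first MYC position. The height was greater in resistant cells at 7 and in parental cells at 9, across lists with no common scale. Between 82 and 83 Mb lay 4 of them, and between 130 and 140 Mb 5, including 8:134536596–134538516 (8.40 in resistant and 3.10 in parental cells).

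Resistant and parental lists of the same genotype shared long-arm positions. Of the 91 resistant METTL7A MYC-tag peaks, 28 overlapped a parental one (30.8%, 21.5 to 41.3, against 14.7% of the whole list), and 28 of the 128 parental ones overlapped a resistant one (21.9%, 15.1 to 30.04, against 19.9%). In wild-type cells 9 of 106 resistant peaks (8.49%, against 6.65%) and 9 of 43 parental peaks did (20.9%, against 18.7%). Between genotypes, 9 of 91 resistant METTL7A peaks overlapped a wild-type one (9.89%, against 8.21%) and 9 of 106 the reverse (8.49%, against 9.43%). In parental cells these were 9 of 128 (7.03%, against 6.61%) and 9 of 43 (20.9%, against 16.6%). With IgG in wild-type cells, 12 of 83 resistant peaks overlapped a parental one (14.5%, 7.70 to 23.9, against 8.46%) and 12 of 49 parental peaks a resistant one (24.5%, 13.3 to 38.9, against 15%). None of these differences from the whole list was tested.

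An IgG peak of the same cells overlapped 0 of 91 resistant METTL7A MYC-tag peaks (where 3 counts would be 3.30% and the exact 95% interval reached 3.97%, against 0.695% of the whole list) and 1 of 128 parental ones (0.781%, against 0.396%). In wild-type cells it overlapped 15 of 106 resistant (14.2%, 8.14 to 22.3, against 12.8%) and 7 of 43 parental peaks (16.3%, 6.81 to 30.7, against 15.2%). The METTL7A IgG lists held 5 and 1 long-arm peaks, so few overlaps were possible there. Against the IgG peaks of all 4 lists, 6.59% and 10.9% of resistant and parental METTL7A MYC-tag peaks had an overlap, and 19.8% and 25.6% of the wild-type ones.

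The bounds of the arm are coordinates and used no height. The arm itself was chosen for peaks called in these same lists, so the comparison of arms below is not independent of that choice. Height and width were not compared without the positions behind the choice. Peak height was greater on the long than on the short arm. The median height was 4.61 on the long arm and 3.98 on the short arm in resistant METTL7A MYC-tag, and 4.98 and 5.38 in parental METTL7A MYC-tag. It was 4.47 and 3.24 in resistant and 4.404 and 3.27 in parental wild-type MYC-tag. In IgG it was 4.68 and 4.09 (resistant wild-type), 4.28 and 3.48 (parental wild-type) and 4.65 and 3.77 (resistant METTL7A). The long arm was higher in 6 of 7 lists, all but parental METTL7A MYC-tag, by 0.695 ± 0.537 on the −log10 p scale (mean ± SD over lists, two-sided exact sign-flip permutation test, p = 0.0312, adjusted p = 0.0469). Height has no common scale across lists, so lists with larger differences weigh more in this mean and its test. The median widths of the 7 lists averaged 620 bp on the long and 529 bp on the short arm. They were greater on the long arm in 6 of 7 lists, by 91.4 ± 96.2 bp (exact permutation test, p = 0.0469, adjusted p = 0.0469). The short arm gave 1 to 16 peaks per list. Both calls ended when any 1 of the 7 lists was left out, with adjusted p-values of 0.062 to 0.094 by the same exact test. With 6 lists that test gives no p below 0.031, so a call could be kept only if both measures reached this floor. Height reached it without parental METTL7A MYC-tag (0.878, 6 of 6 lists) and width without resistant METTL7A MYC-tag (113 bp, 6 of 6 lists). Against the other chromosomes neither measure passed (0.376, adjusted p = 0.0625, and 79.1 bp, adjusted p = 0.234, exact permutation tests over 8 lists).

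**Figure D5:**
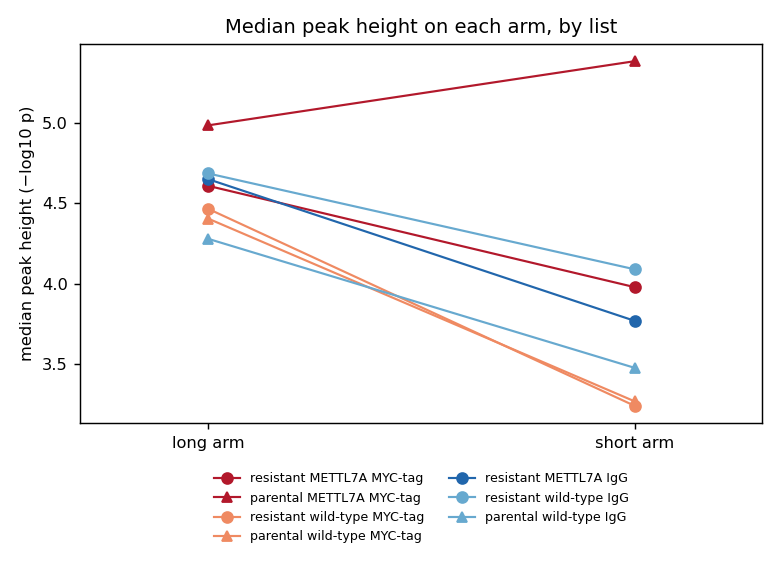
Median peak height (−log10 p, lower of the 2 replicates) on the long and short arm for the 7 lists with a peak on each, 1 line per list, coloured by antibody and genotype. Of the lines, 6 are higher at the long arm, and that of parental METTL7A MYC-tag is higher at the short arm.

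The bound at 47 Mb falls in a stretch with few peaks. The peaks just inside it were 8:47344753–47345363 (7.03, resistant METTL7A MYC-tag) and 8:47528591–47529381 (4.65, resistant wild-type MYC-tag). Below 43 Mb the last peak was 8:42995395–42996354 (3.27, parental wild-type MYC-tag). The one before it was 8:41753298–41754708, of height 3.73, in IgG from resistant wild-type cells.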

How the data were processed

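Chromatin was precipitated from HCC827 cells with an antibody to the MYC tag or with IgG and sequenced, per the labels. Build GRCh37 comes from the submitters' processing notes, which also list MACS2 2.2.7.1 and Bowtie2 2.4.2, then bedtools 2.30, SAMtools 1.16 and Trimmomatic, without saying which did what. For the control library, duplicate removal and any blacklist, the method is not given in the sources used here. The 8 deposited lists have 20 columns in the layout of the IDR method, holding −log10 p of the matched peak and of each replicate as the authors deposited them, and a reproducibility score, also deposited, that is −log10 of the global IDR. Which replicate fills which columns is not given, and depth is unknown from the files.

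Peaks were assigned to arms by midpoint and merged at 1 bp. The span of the long arm was taken to the last peak, 99.1 Mb. Shares carry Clopper-Pearson intervals at 95%. Exact permutation tests took the list as the unit, with Benjamini-Hochberg adjustment over 3 factors and, for height and width, over 2 measures. The functions were tested on simulated data. Named positions were the MYC and RDH10 positions and those near 75 and 82 Mb, all positions with a reproducible peak or a peak in 3 or more lists, and the highest peak of each list. The members, lists and tests were chosen with earlier results of these data known. Gene names came from RefSeq's GRCh38.p14 table, for neighbours only. Alternatives covered other peak thresholds, replicates, denominators, arm bounds and overlaps, and leaving out each list. Python 3.11.15 with pandas 2.3.3, numpy 2.4.6, scipy 1.17.1 and matplotlib 3.10.9 was used.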

Additional observations from a re-analysis of the deposited data

Results flagged for a closer look

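The median height and the median width of long-arm peaks in the parental METTL7A IgG list, 3.23 and 919 bp, stood apart from the other 7 lists, and the width also from the other 3 parental lists. Each rests on 1 peak. Chance alone marks about 1 in 20 such groups.

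The difference in long-arm share between METTL7A and wild-type lists had opposite signs in the 2 states. With the MYC-tag antibody it was −0.96 percentage points in resistant and 1.36 in parental cells, and with IgG 1.93 and −1.96. The difference between MYC-tag and IgG lists of METTL7A cells was −2.33 in resistant and 4.21 in parental cells. Each is a difference of 1 list against 1 list and was not tested.

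Parental METTL7A cells had 1 MYC-tag peak between the arms, at 8:43422588–43423248, with a height of 3.71. No IgG list had a peak there, though the IgG list of the same cells held only 70 peaks.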

How the results depend on the processing

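No paired analysis was possible because each list merges both replicates, which leaves no replicate number to pair by. Whole lists, in contrast, can be matched on the other 2 factors, and an exact sign-flip test over 4 such pairs, added after seeing the data, gave p = 1 for METTL7A, 0.625 for MYC-tag and 1 for resistant lists, where the smallest p is 0.125. The difference in long-arm share turned with reproducible peaks only, to −3.45 percentage points for METTL7A, −1.68 for MYC-tag and −2.83 for resistant lists. Lists then held 13 to 145 peaks, with 0 to 5 on the long arm, so single peaks weigh heavily in these shares. Where both replicates reached −log10 p of 5, the METTL7A difference was −0.18. In the second replicate alone the MYC-tag difference was −1.5 and the resistant one −3.25. Without both METTL7A IgG lists, a setting chosen after seeing the data, the resistant one was −1.11. Leaving out 1 list gave −0.53 to 0.88 for METTL7A, 0.19 to 1.45 for MYC-tag and −0.64 to 0.77 for resistant lists. Adjusted p was 0.257 or more throughout (exact permutation tests).

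Greater height on the long arm lost its call against other chromosomes (0.376), where both replicates reached 5 (0.0809), by the first (0.243) or second replicate (0.435), and without both METTL7A IgG lists (0.664). Width did so against other chromosomes (79.1 bp) and without both METTL7A IgG lists (72.2 bp). Where both replicates reached 5, only 3 lists had a peak on each arm, and the exact sign-flip test could give no p below 0.25. That setting therefore cannot decide either call. Height differed there by 0.0809 (greater on the long arm in 2 of 3 lists) and width by 190 bp (3 of 3). Leaving out 1 list gave 0.607 to 0.878 and 69 to 113 bp. The cause was not tested.

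Where both replicates reached 5, 182 of the 506 peaks and 22 recurrent positions were left (14.6%, against 12.4% over all chromosomes). The 13 reproducible peaks became 2 at an IDR of 0.01 and 21 at 0.1. With an overlap of 50% of each peak, 64 positions recurred and 19 in place of 23 MYC-tag peaks overlapped IgG. Unknown depth limits all counts.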
